A study of Mus musculus with 2 samples.

Results

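Voltage-gated sodium and calcium channels were described in the neonatal mouse heart as the genes with an annotated protein-coding transcript whose symbol begins with Scn and a digit, or with Cacna, Cacnb or Cacng. The rule gave 40 genes of the 55536 annotated genes measured, of which 38 are described here, with 280 annotated transcripts, 170 of them protein-coding. Every count, sum and rank of channel genes below is over these 38. Total RNA was sequenced from whole hearts of 4-day-old B6CASTF1/J females, an F1 strain obtained from The Jackson Laboratory. The study held 1 group, of 2 libraries numbered as biological replicates 1 and 2, with no treatment and no control group. Each library was made from 300 ng of RNA as a stranded, ribosome-reduced library with ERCC spike-ins. Both carry the same donor label, so their origin in separate animals rests on the replicate numbers. No contrast between groups and no p-value is given, and the spread between the libraries, as SD with n = 2, may be partly technical.

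Voltage-gated sodium channels consist of a pore-forming α subunit, which carries the fast inward current of the action potential upstroke, and small β subunits that tether the pore and tune its gating. Voltage-gated calcium channels are built on a pore-forming α1 subunit, with an intracellular β subunit and an extracellular α2δ subunit that bring the pore to the membrane. In cardiac muscle the L-type calcium current triggers calcium release from the sarcoplasmic reticulum at each beat, and T-type currents are known from pacemaker tissue and from fetal and neonatal myocardium. P/Q-, N- and R-type channels are known mainly from nerve terminals and neurons.

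The libraries held 36175363 expected counts in replicate 1 and 32509660 in replicate 2, where expected counts are reads assigned to a gene and need not be whole numbers. A gene at 0 can hold up to 3 counts, or 0.0829 and 0.0923 CPM (counts scaled to a fixed library total) in replicates 1 and 2. Such limits and all intervals cover counting error only, since they are computed from the counts with no term for spread between animals or libraries. The reads carry no molecular identifiers, so even the counting error may be larger than given. The tissue label was met by the cardiomyocyte markers, all 7 of which were expressed, with 29748.5 and 29819.1 TPM in sum (length-scaled transcript abundance, out of a fixed total per library). Expression is used here for a TPM of at least 1 in both libraries. The atrial list had 5 of 5 members expressed, the conduction system list 5 of 8, smooth muscle and pericyte 6 of 6, endothelium 3 of 3 and fibroblast 3 of 3. Lower lists were skeletal muscle (4 of 13), Schwann cell and glia (1 of 5), autonomic and sensory neuron (2 of 10) and neuroendocrine (0 of 3). In a whole heart, fewer cells of a type and less RNA per cell cannot be told apart.

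Of the 38 channel genes, 14 (36.8%) were expressed in both hearts, against 54.4% of the 21938 nuclear protein-coding genes. The other 24 had TPM values between 0 and 0.80. Expression was concentrated in few genes, with 8 members at a mean TPM of at least 5. The 38 genes summed to 240.4 TPM in replicate 1 and 255 in replicate 2 (248 ± 10.3; SD, n = 2). By calcium channel subunit class the L-type α1 genes led, with 114.5 ± 7.09 TPM in sum. The calcium β genes summed to 49.7 ± 0.919, the α2δ genes to 34.7 ± 1.39 and the T-type α1 genes to 31.4 ± 1.97. The γ genes (7.72 ± 0.601) and the P/Q-, N- and R-type α1 genes (4.13 ± 0.559) were lower. Over protein-coding transcripts alone, the L-type α1 sum was 43.7 ± 1.38 TPM and the calcium β sum 33.0 ± 1.56, and the P/Q-, N- and R-type sum was 1.29 ± 0.148. TPM is scaled to transcript length, but gene levels set side by side depend on the transcripts counted. Short noncoding transcripts with few counts can add much TPM to some genes and none to others.

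**Figure D1:**
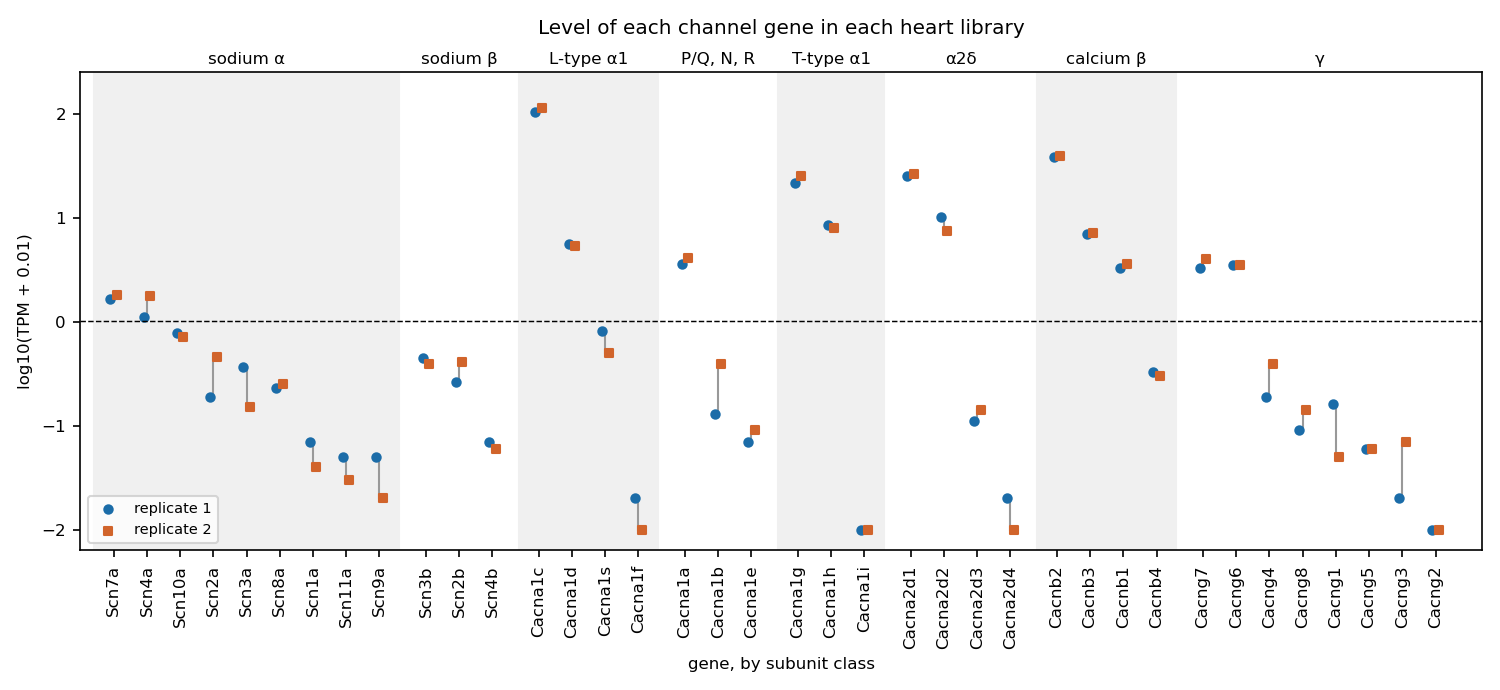
Level of each of the 38 channel genes, grouped by subunit class, as log10 of the gene table's TPM plus 0.01; circles are replicate 1, squares replicate 2, lines join the libraries of a gene, and the dashed line marks a TPM of 1. Among calcium channel genes the mean levels spread widely, from Cacna1c at 108 TPM to Cacna1i and Cacng2, which had 0 counts in both libraries.

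Cacna1c, the pore of the main cardiac L-type calcium channel, had the highest gene level of the 38 genes. Cacna1c (ENSMUSG00000051331.15), on the minus strand of chromosome 6 (mm10, chr6:118587240-119196418), had 12941 and 12338 counts in replicates 1 and 2, at 103 and 114 TPM (108 ± 7.44). It made up 94.2% and 95.1% of the L-type sum, and ranked 660 among nuclear protein-coding genes. By the quantification that gave these gene levels, most of this TPM was assigned to transcripts that the annotation classes as noncoding.

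Of the 27 annotated transcripts of Cacna1c, the one with the largest share was the noncoding Cacna1c-218, of 954 bases and 4 exons (chr6:118946163-119196409). It held 47.0 and 52.1 TPM, or 45.6% and 45.8% of the gene's TPM, from 1128 and 1094 counts. In the second quantification, the authors' other table of transcript levels, it held 33.8% and 33.7%. The protein-coding transcripts summed to 39.9 and 42.3 TPM, which was 38.7% and 37.2% of the gene's TPM but 83.1% and 81.2% of its counts. Short noncoding transcripts thus weighed much more in TPM than in counts. In the second quantification the protein-coding transcripts had 54.1 of 107 TPM in replicate 1 and 57.6 of 121 in replicate 2. There the noncoding part was the larger only in replicate 2. The leading coding transcript, Cacna1c-207 of 13162 bases, had 15.7 and 16.9 TPM, followed by Cacna1c-212 with 10.8 and 11.4.

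The level of Cacna1c thus depended on the transcripts counted. Over protein-coding transcripts alone, an alternative chosen after the data were seen, Cacna1c averaged 41.1 ± 1.70 TPM, and 55.9 ± 2.50 in the second quantification. It was first of the 38 genes either way, followed by Cacnb2, Cacna2d1, Cacna1g and Cacna2d2 in that order. Cacna1d was eighth over all transcripts but had rank 11 over protein-coding ones in both quantifications. The class of a transcript is that of the annotation.

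**Figure D2:**
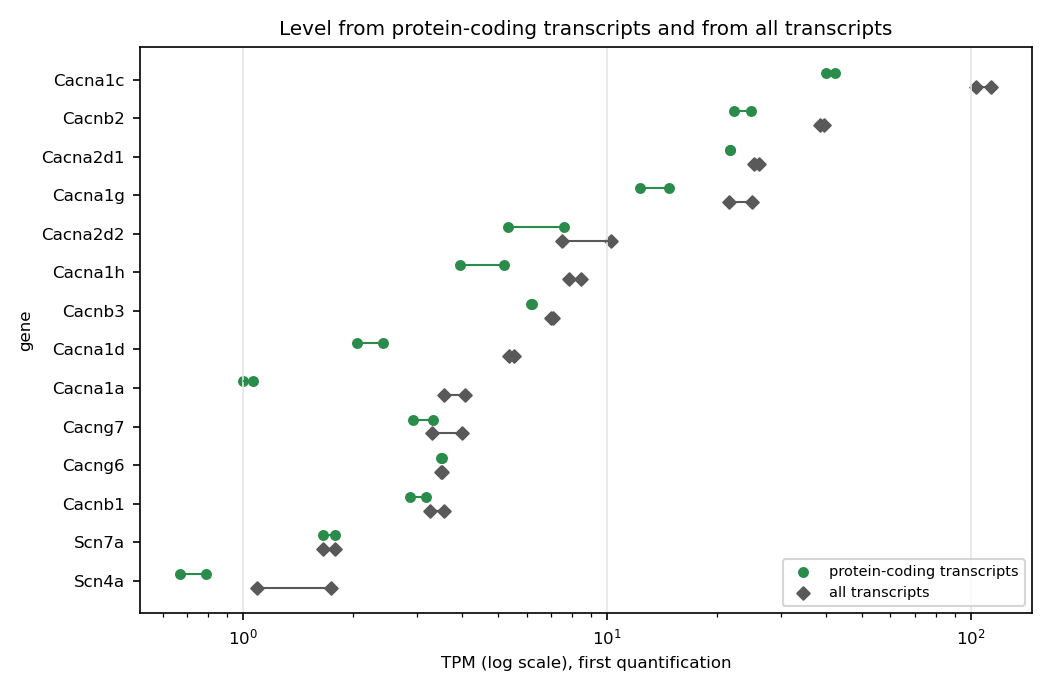
Level of the 14 expressed channel genes from protein-coding transcripts only (circles) and from all annotated transcripts (diamonds), in TPM of the first quantification on a log scale; each line joins replicates 1 and 2. As a ratio the gap was widest for Cacna1a, Cacna1c and Cacna1d, whereas Cacng6 and Scn7a had no gap.

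Cacna1c has alternative beginnings of its coding sequence, of which the far upstream start is known as the cardiac long amino-terminal form and the start further downstream as the form of smooth muscle and brain. The first 60 coding bases of both are shown to set them apart, from the GENCODE M21 transcripts on GRCm38, minus strand of chromosome 6. The start codons, in capitals, begin at positions 119196231 and 119107975.
Cacna1c start 119196231: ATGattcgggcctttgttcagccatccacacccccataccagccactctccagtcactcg
Cacna1c start 119107975: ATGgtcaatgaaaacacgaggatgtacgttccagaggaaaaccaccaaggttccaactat
Transcripts with the far upstream start had 26.5 and 28.2 TPM, 67.0% and 67.5% of the TPM of coding transcripts whose coding sequence begins with ATG. Those with the start at 119107975 had 10.02 and 10.9 TPM, 25.4% and 26.0%. In the second quantification the shares were 58.7% and 57.5% for the far upstream start, and 36.6% and 37.3% for the other. Transcripts with the far upstream start thus had the larger share in each library by either quantification. These shares are sums over whole transcripts and not reads at the start codons. The larger part for the far upstream start came from the 13162-base Cacna1c-207. The next, Cacna1c-212, had 10.8 and 11.4 TPM, and 14.6 and 14.3 in the second quantification. There the start at 119107975 had 19.6 and 20.8 TPM, so the order depended on Cacna1c-207.

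Cacna1c also has 3 pairs of equal-length alternative coding exons, and Cacna1d, its closest L-type relative in the heart, has 1. The Cacna1c pairs encode parts of membrane segments of the pore and are known to change its gating and its block by dihydropyridine drugs. The 104-base pair encodes the sixth segment of the first repeat in both genes, and its sequences are shown because its copies were used most unequally in Cacna1c. In Cacna1c (minus strand, GRCm38) the upstream copy lies at chr6:118742265-118742368 and the downstream copy at chr6:118741871-118741974. In Cacna1d (minus strand) they lie at chr14:30171956-30172059 and chr14:30171296-30171399. Capitals mark positions at which the copies of a gene differ, 32 in Cacna1c and 22 in Cacna1d.
Cacna1c upstream 104-base exon: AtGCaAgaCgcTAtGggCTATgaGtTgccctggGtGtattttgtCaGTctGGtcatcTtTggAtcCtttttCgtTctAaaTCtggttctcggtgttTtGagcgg
Cacna1c downstream 104-base exon: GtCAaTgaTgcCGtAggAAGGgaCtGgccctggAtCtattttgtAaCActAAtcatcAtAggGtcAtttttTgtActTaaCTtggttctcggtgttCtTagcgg
Cacna1d upstream 104-base exon: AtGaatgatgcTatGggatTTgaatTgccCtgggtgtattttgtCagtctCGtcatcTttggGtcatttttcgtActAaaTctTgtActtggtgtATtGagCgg
Cacna1d downstream 104-base exon: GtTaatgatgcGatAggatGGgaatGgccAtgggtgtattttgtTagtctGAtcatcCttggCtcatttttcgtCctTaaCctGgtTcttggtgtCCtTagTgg

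In Cacna1c the upstream 104-base exon prevailed, with 31.5 and 33.5 TPM of transcripts that hold it, against 9.16 and 10.1 TPM for the downstream copy. Its share was 77.4% and 76.9% in replicates 1 and 2, and 71.2% and 69.3% in the second quantification. The relation was the other way round in Cacna1d, where the upstream copy took 25.7% and 25.8%, and 36.5% and 26.5% in the second quantification. The Cacna1d shares rest on 0.70 and 0.58 TPM for the upstream copy and 2.02 and 1.67 TPM for the downstream copy. They are sums over whole transcripts and not reads over the exons. The upstream sum includes Cacna1d-208, annotated as a nonsense-mediated decay transcript, at 0.30 and 0.20 TPM. Its other part, Cacna1d-209, had 89.0 and 73.7 counts. The authors' own uncertainty of that assignment, as an SD, was 36.5 and 35.9 counts.

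The other Cacna1c pairs were used more evenly, and their sequences are shown for comparison with the 104-base pair. The 60-base pair (chr6:118674555-118674614 upstream, chr6:118674346-118674405 downstream) encodes part of the second segment of the third repeat and differs at 25 positions. The 84-base pair (chr6:118638427-118638510 upstream, chr6:118637730-118637813 downstream) encodes part of the third segment of the fourth repeat and differs at 35 positions. Both are given 5′ to 3′ on the minus strand of GRCm38, from GENCODE M21, with capitals at the positions that differ.
Cacna1c upstream 60-base exon: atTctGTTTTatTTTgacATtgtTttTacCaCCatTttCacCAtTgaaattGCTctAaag
Cacna1c downstream 60-base exon: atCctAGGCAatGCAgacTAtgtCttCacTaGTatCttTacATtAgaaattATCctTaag
Cacna1c upstream 84-base exon: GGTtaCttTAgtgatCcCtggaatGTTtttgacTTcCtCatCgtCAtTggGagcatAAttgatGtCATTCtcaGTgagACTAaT
Cacna1c downstream 84-base exon: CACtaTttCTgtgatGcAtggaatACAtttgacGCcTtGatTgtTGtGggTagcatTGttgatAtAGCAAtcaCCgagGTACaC
The upstream copy took 41.2% and 41.4% for the 60-base pair, and 39.0% and 38.9% in the second quantification. For the 84-base pair it took 52.3% and 56.0%, and 50.9% and 52.6% in the second quantification. Transcripts annotated with both copies were left out of these shares and had at most 0.73 TPM in the first quantification.

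**Figure D3:**
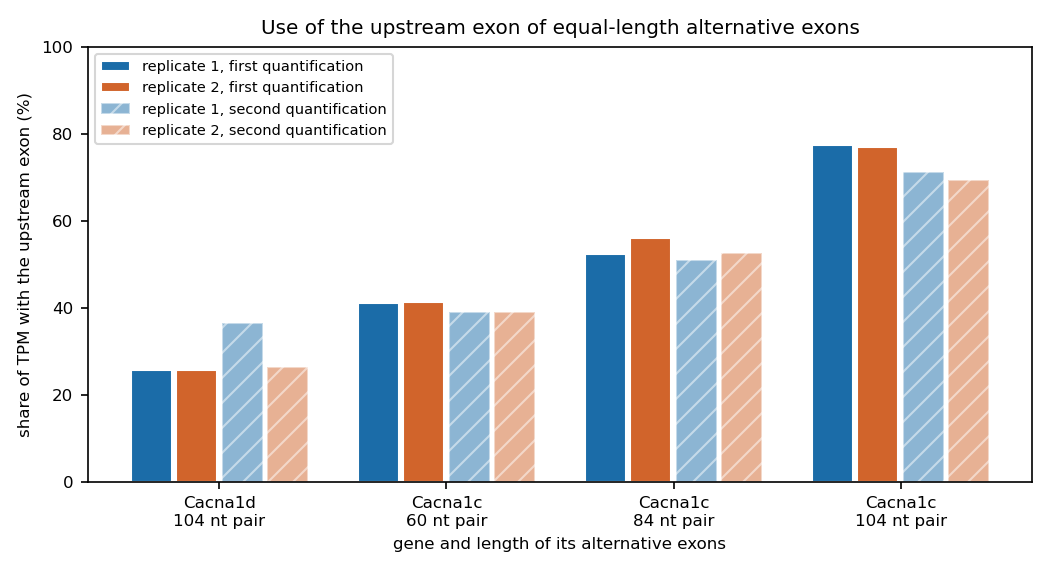
Share of TPM, in percent, of annotated transcripts with the upstream copy among those with either copy of an equal-length exon pair, for the 4 pairs in expressed channel genes; filled bars are the first and hatched bars the second quantification, blue replicate 1 and orange replicate 2. The upstream share was lowest in Cacna1d (25.7% to 36.5%) and highest for the 104-base pair of Cacna1c (69.3% to 77.4%).

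Cacna1d, the L-type pore of pacemaker and atrial cells, had 763 and 588 counts (5.54 and 5.37 TPM). The log2 ratio Cacna1c/Cacna1d was 4.31 ± 0.13, 19.9-fold, and 4.21 ± 0.23 over protein-coding transcripts. The transcript of Cacna1d with the largest share was a retained-intron transcript, Cacna1d-205, with 26.3% and 25.7% of the TPM. Cacna1s, the skeletal muscle L-type pore, had 71 and 39 counts (0.80 and 0.49 TPM), and Cacna1f, known from the retina, had 1 and 0 counts.

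Cacna1a, the P/Q-type pore of nerve terminals, reached 3.55 and 4.06 TPM over all transcripts but 1.00 and 1.06 TPM over protein-coding ones. These held 79.1% and 80.3% of its counts. The 249-base noncoding Cacna1a-205 alone gave 0.88 and 1.02 TPM from 3.72 and 3.75 counts, and was at 0 in the second quantification. Its N-type relative Cacna1b (16 and 19 counts) and R-type relative Cacna1e (25 and 22 counts) stayed under a TPM of 1.

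Of the T-type pores, Cacna1g was the higher. Cacna1g had 21.6 and 24.9 TPM (23.3 ± 2.38) and Cacna1h 8.45 and 7.87 (8.16 ± 0.410), while Cacna1i, a thalamic T-type gene, had 0 counts in both libraries. The log2 ratio Cacna1h/Cacna1g was -1.51 ± 0.22, so that Cacna1g was 2.84-fold higher, and -1.57 ± 0.47 over protein-coding transcripts. Their values did not overlap in either quantification. The main Cacna1h transcript could not be settled. In the first quantification Cacna1h-205 had 4.83 and 3.94 TPM and Cacna1h-201 had 0, but in the second Cacna1h-201 had 4.57 and 0.41 TPM, and Cacna1h-205 had 0.891 and 4.24.

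Among α2δ genes, Cacna2d1, the form that is prevalent in heart and skeletal muscle, had 25.4 and 26.1 TPM (25.7 ± 0.516). Cacna2d2 followed with 10.2 and 7.50 TPM. The log2 ratio Cacna2d1/Cacna2d2 was 1.55 ± 0.34, 2.94-fold. Cacna2d3 had 9 and 10 counts and Cacna2d4 1 and 0. For Cacna2d1 the leading transcript, Cacna2d1-202, held 52.1% and 49.3% of the TPM.

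Cacnb2, the β subunit of the cardiac L-type channel, was the highest calcium β gene, with 38.4 and 39.4 TPM (38.9 ± 0.672). Cacnb3 had 7.02 and 7.11 TPM, Cacnb1, the skeletal muscle β subunit, 3.26 and 3.55, and the neuronal Cacnb4 0.32 and 0.29. The log2 ratio was 2.46 ± 0.01 for Cacnb2/Cacnb3 and 3.51 ± 0.06 for Cacnb2/Cacnb1. With protein-coding transcripts alone these log2 ratios were 1.93 ± 0.12 and 2.96 ± 0.21, since 64.5% and 56.6% of the TPM of Cacnb2 was protein-coding.

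The Cacnb2 protein is known in forms that differ at the amino terminus and that slow or speed the inactivation of the pore. Its 4 coding transcripts with a complete start, beginning with ATG, each had a start of their own. The first 60 coding bases of 3 of them are shown (plus strand of chromosome 2, GRCm38, GENCODE M21), since these starts carried most of the coding TPM and their shares differed between the quantifications. Capitals mark the start codon, whose position is in the name.
Cacnb2 start 14604451: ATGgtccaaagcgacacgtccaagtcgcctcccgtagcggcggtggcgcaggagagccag
Cacnb2 start 14824256: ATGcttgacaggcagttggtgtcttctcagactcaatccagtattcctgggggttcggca
Cacnb2 start 14873877: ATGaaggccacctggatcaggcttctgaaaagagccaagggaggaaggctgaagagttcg
The start at 14604451, that of Cacnb2-203, led in both quantifications, with 14.8 and 17.1 TPM in the first and 15.9 and 17.8 in the second. The start not shown, at 14874455, had 1.71 and 2.05 TPM in the first and 6.76 and 6.79 in the second. The start at 14824256 had 8.31 and 3.14 TPM in the first quantification and 0 in the second. The start at 14873877 had 0 in the first and 13.2 and 8.09 TPM in the second. The transcripts of these last starts, Cacnb2-214 and Cacnb2-202, have the same length (2117 bases) and the same number of exons (13). They begin at different positions, 14824092 and 14873669. Their levels could not be settled, since the quantifications gave opposite results, and the cause was not tested.

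Of the γ genes, relatives of the skeletal muscle γ subunit, 2 of 8 were expressed. Cacng7, known for its part in AMPA receptor trafficking in the brain, had 3.30 and 3.99 TPM, and Cacng6 had 3.52 and 3.49. The log2 ratio Cacng6/Cacng7 was -0.05 ± 0.20, positive in replicate 1 (0.09) and negative in replicate 2 (-0.19), so the genes were not separated in the first quantification. In the second quantification it was -0.14 and -0.45, with Cacng7 the higher in both libraries. Cacng4 had 17 and 32 counts, Cacng1, the skeletal muscle γ subunit, 5 and 1, and Cacng5, Cacng8 and Cacng3 had 1 to 5 counts per library. Cacng2, the brain gene stargazin, had 0 counts, and 0.105 and 0.111 TPM in the second quantification.

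Of the sodium α genes described, Scn7a, a sodium channel relative that is not gated by voltage in the usual way and is known from glia and sensory tissue, had 336 and 318 counts (1.65 and 1.79 TPM). Scn10a, a sensory neuron channel, had 142 and 110 counts and stayed under a TPM of 1 at 0.77 and 0.70. Of the sodium β genes described, Scn3b was at 0.44 and 0.38 TPM (46 and 34 counts), and Scn2b at 0.25 and 0.40 TPM (31 and 43 counts). Scn4b, the β4 subunit, was nearly absent, with 8 and 6 counts (0.06 and 0.05 TPM).

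Scn4a, the skeletal muscle sodium channel, had nearly equal counts in the hearts, 127 in replicate 1 and 134 in replicate 2. Its TPM was nevertheless 1.09 in replicate 1 and 1.74 in replicate 2, because the gene's estimated effective length was 4157 and 3142 bases. Most of the difference lay in Scn4a-202, a noncoding transcript of 443 bases, with 0.41 and 0.95 TPM from 4 and 8 counts. The protein-coding Scn4a-201 was close in the hearts, at 0.67 and 0.79 TPM. This is under a TPM of 1, so Scn4a counted as expressed only with Scn4a-202 included.

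The neuronal sodium α genes were all under a TPM of 1. Scn3a had 54.7 and 30.4 counts, Scn2a 24 and 18.6, and Scn8a 19 and 21. Scn1a had 3 and 4 counts, Scn9a 7.28 and 1, and the sensory neuron gene Scn11a 7 and 3. These genes had a mean TPM between 0.025 and 0.315. Scn2a, Scn3a and Scn9a were the only members with a posterior SD of the count above 0 at gene level in either library. This SD, the authors' own uncertainty of assignment, reached 0.69 counts there. The downstream copies of a 92-base alternative exon of Scn2a and Scn3a are identical, while that of Scn9a matches them at 97.8%. The part of this exon in the SD was not tested. Among transcripts of a gene the SD could be far larger. For Cacna1g-208 it was 252 and 254 counts, at 1032 and 1000 counts. For Cacna1c-218 it was 20.2 and 19.1, at 1128 and 1094 counts. Shares of transcripts, starts and exons carry this uncertainty.

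For the 8 genes with a mean TPM of at least 5, the transcript with the largest share of the gene's TPM, by the mean of the libraries, was the same in both quantifications in 4, and in 2 of the 8 it was noncoding. Cacnb2-203 took 38.5% and 43.4%, and 29.3% and 30.4% in the second, so it led in both but at different shares. Cacna1c-218 and Cacna1d-205 also led in both. The fourth was Cacna1h-205, which led the second quantification only by a mean of 25.0%, against 24.7% for Cacna1h-207 and 23.5% for Cacna1h-201. In replicate 1 of that quantification it took 8.37%, behind Cacna1h-201 with 43.0%.

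In Cacna1g, Cacna2d1, Cacna2d2 and Cacnb3 the leading transcript by mean share changed with the quantification. Cacna1g-208 took 21.5% and 20.6% in the first and 7.47% and 7.80% in the second, in which Cacna1g-201 led with 19.6% and 18.6%. Cacnb3-206 took 34.5% and 37.4% in the first, and in the second Cacnb3-202 led with 50.5% and 45.6%. Cacna2d2-208 took 33.0% and 38.7%, and in the second Cacna2d2-201 led with 34.6% and 33.4%. Cacna2d1-202 and Cacna2d1-205 were nearly even in the second quantification, at 26.3% and 28.2% for the first-named and 30.3% and 25.6% for the other. The order of the 8 genes by mean TPM was nevertheless the same in both quantifications.

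Of the 8 pairs of related members set against each other, 7 were separated, meaning that the lower library of the higher gene exceeded the higher library of the other in both quantifications. In the order of the 14 expressed genes, 8 of 13 neighbours were separated by this rule. Those not separated were Cacna2d2 and Cacna1h, Cacna1a and Cacng7, Cacng7 and Cacng6, Cacng6 and Cacnb1, and Scn7a and Scn4a.

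Between the hearts, the channel genes had a median absolute log2 ratio of 0.0830, near the 0.0858 of all genes tested. A difference was called at 2-fold or more with an exact 95% Clopper-Pearson interval excluding equality, a mean TPM of at least 1 and at least 20 counts in sum. None of the 14 channel genes tested was called, against 0.86% of 13598 genes tested (117 genes), so the absence of calls says little of a set this small. Log2 ratios of replicate 2 over replicate 1 had a median of 0.00296 and ran from -0.60 to 0.19, with 7 genes higher and 7 lower in replicate 2. Over all genes tested the median was -0.00306. Intervals excluded equality in 5 of the 14 (35.7%), against 23.7% of all genes tested. These comparisons are of 2 libraries and have no replicate check.

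The widest difference was that of Cacna2d2, with 726 counts in replicate 2 and 1190 in replicate 1, a log2 ratio of -0.60 (95% interval -0.74 to -0.47) or 1.52-fold lower. Cacna1h (-0.35, interval -0.48 to -0.22) and Cacna1d (-0.27, -0.42 to -0.11) were also lower in replicate 2. Cacna1g was higher in replicate 2 (0.18, 0.10 to 0.25). The 5 atrial markers had log2 ratios below 0, with a median of -0.32 and a sum of 1708 TPM in replicate 2 and 2033 in replicate 1, and none was called. Nppa, the atrial natriuretic peptide, was at -0.35 and Kcna5 at -0.03. Of the 5 conduction system markers tested, 2 were above 0 and 3 below, with a median of -0.04, and none was called. The pacemaker channel gene Hcn4 was the lowest of these at -0.46 and Smoc2 the highest at 0.22. Their part in the channel differences was not tested.

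**Figure D4:**
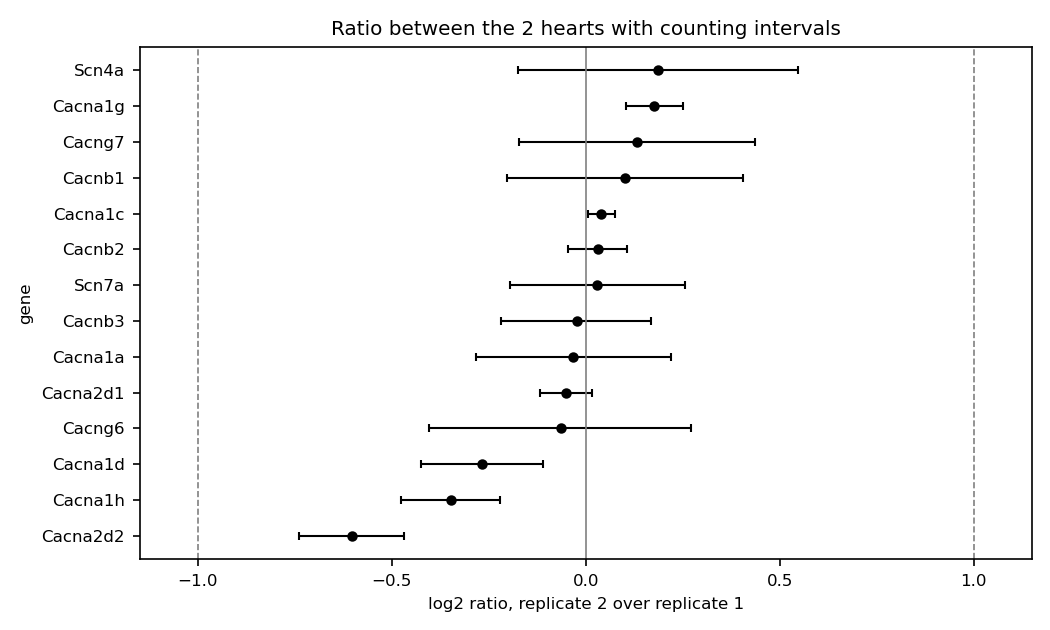
Log2 ratio of expected counts, replicate 2 over replicate 1, after TMM scaling, for the 14 expressed channel genes; bars are exact 95% counting intervals and dashed lines mark 2-fold. No gene reached 2-fold, and Cacna2d2 was the lowest at -0.60.

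Markers of skeletal muscle, and 1 of Schwann cells, differed between the hearts. The 13 skeletal muscle markers summed to 7.29 TPM in replicate 2 and 45.3 in replicate 1, and all 6 that could be tested were called lower in replicate 2 (0.537% of all genes tested were). Among members known from skeletal muscle, Cacna1s had 39 counts in replicate 2 and 71 in replicate 1 (log2 ratio -0.75, interval -1.36 to -0.17), and Cacng1 1 and 5. Scn4a and Cacnb1 were not lower in replicate 2, with log2 ratios of 0.19 (-0.17 to 0.55) and 0.10 (-0.20 to 0.41). The myogenic factors Myod1 and Pax7 each had 0 counts in replicate 2 and 1 in replicate 1, and Myog had 6 in replicate 2 and 9 in replicate 1. The part of skeletal muscle RNA in the levels of Cacna1s and Cacng1 was not tested.

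The 5 Schwann cell and glia markers summed to 3.49 TPM in replicate 2 and 9.46 in replicate 1. The 1 that could be tested, the myelin gene Mbp, was called lower in replicate 2, with 209 counts in replicate 2 and 587 in replicate 1. Mbp alone made up 2.16 TPM of the sum in replicate 2 and 8.29 in replicate 1. Of the others, Sox10 was lower in replicate 2, with 9 counts against 26 in replicate 1. S100b (24 in replicate 2, 20 in replicate 1), Foxd3 (12 and 7) and Cdh19 (15 and 16) did not follow, so the list did not fall as a whole. Scn7a was at 318 counts in replicate 2 and 336 in replicate 1, a log2 ratio of 0.03 (-0.20 to 0.26). The part of glial RNA in its level was not tested. Scn10a had 110 counts in replicate 2 and 142 in replicate 1 (-0.26, -0.63 to 0.11). The 10 autonomic and sensory neuron markers summed to 19.0 TPM in replicate 2 and 20.4 in replicate 1, of which Uchl1 alone gave 14.6 and 14.2. Of the 2 that could be tested, Uchl1 was at 0.01 (-0.21 to 0.22) and Stmn2 at -0.51 (-0.88 to -0.14), and neither was called. Among the rest, all at low counts, only Dbh had more counts in replicate 2 (45, against 34 in replicate 1). The level sum thus rests on Uchl1.

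Genes whose products bind or regulate these channels were mostly expressed. Of a list of 34, 25 were expressed, where 54.4% of nuclear protein-coding genes were. Of the 25, 10 had a log2 ratio above 0 and 15 below (median -0.05). None was called, against 0.86% of all genes tested, so the absence of calls says little of a list this short. The highest were Ryr2, the ryanodine receptor that the L-type current opens, at 323 ± 12.0 TPM, the ubiquitin ligase Nedd4 at 287 ± 6.58 and the junctional protein Jph2 at 167 ± 7.02. Calm2 and Calm3, which encode the same calmodulin protein, the calcium sensor of the L-type pore, were at 133 ± 6.60 and 140 ± 3.95. Among binders of the sodium pore's carboxy terminus, Fgf13 had 58.9 ± 5.57 TPM and Fgf12 17.2 ± 1.99. Rrad, a GTPase that restrains the L-type current, had 91.8 ± 8.89 TPM, and its relatives Rem1 and Gem 6.68 ± 0.990 and 4.67 ± 0.552. Rem2, the adaptors Stac, Stac2 and Stac3, the skeletal muscle receptor Ryr1, the sodium leak channel Nalcn with its partners Unc79 and Unc80, and Fgf14 were not expressed.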

How the data were processed

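Each library came with 3 tables deposited by the authors, 1 per gene and 2 per transcript, on mm10 with annotation M21, per the labels and the file headers. The gene table and the first transcript table hold estimated counts (expected counts), TPM, the percent that each transcript makes of its gene, and a posterior SD of the count (used as a score of uncertainty), as the authors deposited them. The second transcript table, in another column layout, again holds TPM and estimated counts as deposited, and is here called the second quantification; it was summed per gene. Program names and versions: not given in the sources used here.

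Values were read as deposited. Expected counts were rounded and scaled by trimmed means of M values (TMM; edgeR 4.0.16, R 4.3.3) for the ratio between hearts, with a prior count of 0.5. Ratios were computed with Python 3.11.15, numpy 2.4.6, pandas 2.3.3 and scipy 1.17.1. The rule was run on simulated counts with counting error only, without TMM. That run held no spread between animals, so it cannot show how the rule behaves on real hearts. Fold changes and log2 ratios between genes were taken from TPM in each library. Gene and transcript classes, coordinates (1-based) and sequences came from GENCODE M21. Of the members, 23 overlap another annotated gene, 22 of them on the opposite strand and 9 on the same strand. The libraries are labelled stranded, which does not separate genes on the same strand. Cacna1c, Cacnb2 and Cacna2d1 are among those 9.

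The members, lists and pairs were chosen with earlier results of these data known. Named were members with a TPM of at least 1 in both libraries, the rest by counts, the 8 pairs, the leading transcripts of members with a mean TPM of at least 5, and the highest partners; further transcripts, exons and partners were chosen after their values were seen. Alternatives were the second quantification, other abundance units and minimums, other scalings (DESeq2 1.42.0 size factors, spike-ins, total counts), other filters, each library alone, and protein-coding transcripts only. Some genes of the rule and of the lists are not reported here. Depth limits the lowest genes: 10 members had under 10 counts over both libraries.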

Additional observations from a re-analysis of the deposited data

How the results depend on the processing

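The number of expressed members stayed between 12 and 16 of 38 under all alternatives run (14 in each library alone). The summed TPM of members, 248, was 298 in the second quantification, 543 when rescaled to nuclear protein-coding genes, 136 over protein-coding transcripts (182 in the second quantification), and 240.4 to 255 in single libraries. No member was called between hearts under any scaling, the second quantification or a higher TPM minimum. Without a filter 1 was called, Cacng4 (32 counts in replicate 2, 17 in replicate 1), among 584 of 26503 genes. The median log2 ratio of members was 0.14 with spike-in scaling, 0.05 with total counts and -0.0681 without a filter, against medians of 0.13, 0.04 and 0.00377 over all genes. All 8 pairs kept their sign in the second quantification and by CPM, and 7 over protein-coding transcripts and in replicate 1 alone, Cacng6/Cacng7 being the exception. Their size moved by more than the SD of the libraries in 5 of 8 pairs in the second quantification, 5 by CPM and 3 over protein-coding transcripts, and so did 8 of 8 leading transcript shares in the second quantification. The causes were not tested. No paired analysis was possible because the series has 1 group of 2 libraries. Members under 10 counts over both libraries are limited by depth.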

Other observations

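Members lie near each other in the genome: 19 of the 38 fall into 7 clusters in which neighbours are at most 1 Mb apart. On chromosome 2, Scn7a was the only expressed member of a run of 5 sodium α genes (Scn3a, Scn2a, Scn1a, Scn9a and Scn7a). On chromosome 7, the expressed genes Cacng7 and Cacng6 flank Cacng8, which had 3 and 2 counts. Scn2b and Scn4b, both low, are neighbours on chromosome 9. Cacna1c on chromosome 6 lies beside Cacna2d4, which had 1 and 0 counts.

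Equal-length alternative coding exons were found in 9 members, 12 pairs in all, of which 4 pairs lie in expressed members. Scn2a, Scn3a, Scn8a and Scn9a each hold a 92-base pair. The downstream copies of Scn2a and Scn3a are identical, and Scn2a and Scn9a match at 98.9% of bases upstream and 97.8% downstream. The Scn8a copies match those of the other 3 genes at 85.9% to 89.1% upstream and 92.4% downstream.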
